A study of Mus musculus with 8 samples.

Results

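The comparison of mutant ASXL1 with an empty vector before neutrophil maturation used 4 of 8 arrays. ASXL1-MT cells were 32Dcl3 cells carrying pMYs-FLAG-ASXL1-MT-IG, profiled in IL-3 and after 2 h in G-CSF. The mock cells carried pMYs-IG, the same retroviral vector with no ASXL1 insert, and were profiled at the same points. 32Dcl3, a mouse myeloid progenitor line, needs interleukin-3 (IL-3) to grow, and the hormone G-CSF (granulocyte colony-stimulating factor) turns it to neutrophil maturation. The arrays were chosen by label alone, and each ASXL1-MT array was set against the mock array of its time point, which gave 2 pairs. The other 4 arrays, at 6 h and 24 h in G-CSF, were used to see what became of the same genes. They also entered the centring of the values, the filters on dim genes and the error of the fit. The genes that differed in all 4 pairs were chosen on them as well. Each of the 8 conditions was 1 array. The labels name no second culture of either vector and do not say whether IL-3 was withdrawn with G-CSF, so the vector, the integration sites and the history of a culture cannot be told apart. The 2 time points stood in for replicates, and p-values may measure technical spread only.

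ASXL1 is a chromatin protein that binds the deubiquitinase BAP1, which takes ubiquitin off histone H2A, and it also works with the Polycomb repressor complexes. In myeloid neoplasms its gene carries mutations that shorten the protein and leave the amino-terminal part. IL-3 keeps 32Dcl3 cells dividing as immature cells, while G-CSF starts a sequence in which granule proteins, surface receptors and migration genes come up.

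The table held 45037 probe sets, short oligonucleotide groups that each read 1 transcript region, and 18193 genes were represented by 1 probe set each. Values are log2 expression relative to that probe set's median over the 8 arrays, so they compare arrays within a gene and not genes with each other. Of these genes 12959 were bright enough to test, and 7712 passed a stricter filter on dim genes. Dim probe sets were noisy: the median probe set with an estimated level under 4 varied over the 8 arrays by 1.35 (SD), against 0.72 for levels between 4 and 8 and 0.26 for brighter ones. In at least 1 early array, an estimated level of 8 was reached by 6 of 8 neutrophil lineage markers, 2 of 3 macrophage, 2 of 3 megakaryocyte, 2 of 5 mast cell or basophil and 1 of 2 eosinophil markers. It was reached by 0 of 2 erythroid, 0 of 2 B cell, 0 of 2 T cell and 0 of 3 fibroblast markers. In IL-3 and at 2 h these 8 neutrophil markers differed between ASXL1-MT and mock by -2.32 to 0.08 and by -1.26 to -0.06. In whole cultures, fewer cells of a type and less RNA per cell cannot be told apart.

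Most genes had nearly the same level with both vectors before maturation. Among the 7712 genes past the stricter filter, 96.1% differed by under 0.5 on the log2 scale in the IL-3 pair and 95.2% in the 2 h pair. At least 2-fold differences were found in 1.31% of them in IL-3 and 1.23% at 2 h. The large differences were mostly not shared by the 2 pairs. A fit of all 8 arrays in limma, with an early and a late vector effect, called 0 of 12959 genes at a false discovery rate of 0.05 (0%). At an unadjusted p under 0.05 it had 660 genes. The count of calls was also 0 or 1 in each other fit run. The smallest adjusted p was 0.314, for Cyp7b1. Across the 7712 genes the IL-3 and the 2 h differences had a Pearson correlation of 0.04, which is given as a description, since the points share the same 4 arrays.

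A size rule asked for at least 2-fold, a difference of 1 on the log2 scale, in the same direction in both pairs. Of the 12959 genes tested, 138 were higher in ASXL1-MT cells by this rule (1.06%) and 166 were lower (1.28%). For comparison, 285 genes passed the same size in both pairs but in opposite directions. Past the stricter filter 11 genes were higher (0.143%) and 15 lower (0.195%), beside 25 in opposite directions. The size rule thus gathered 304 genes, close to the 285 whose pairs disagreed, and a gene's place in it carries no test.

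**Figure D1:**
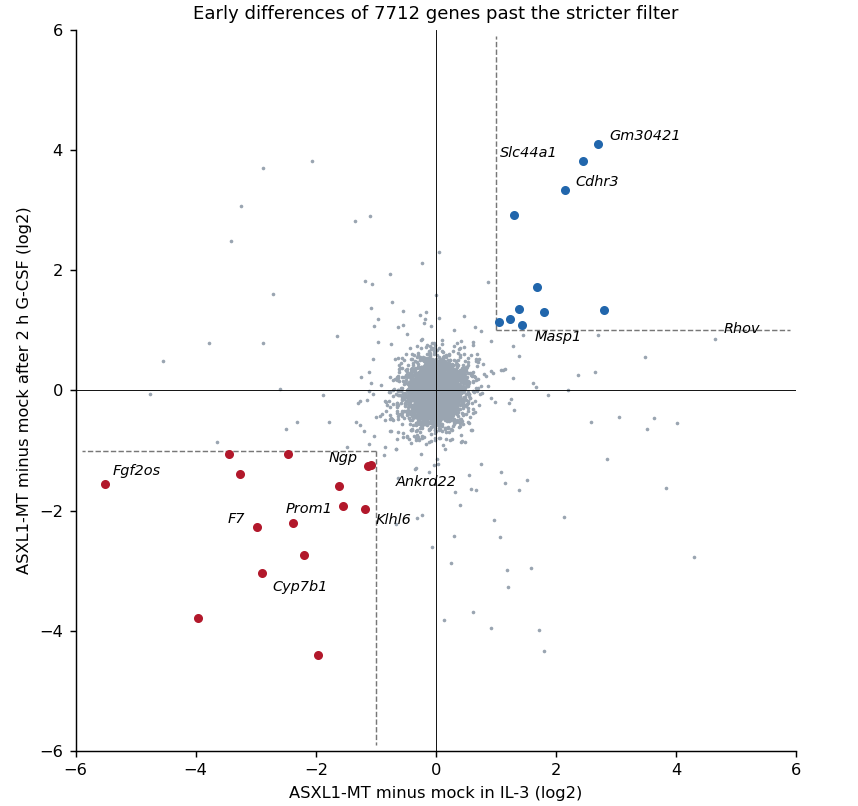
Each point is 1 of 7712 genes, with ASXL1-MT minus mock in IL-3 on the x axis and after 2 h in G-CSF on the y axis, both log2. Red points are the 15 genes at least 2-fold lower in both pairs and blue points the 11 at least 2-fold higher (dashed corners); the 25 genes of opposite direction lie in the other 2 corners.

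Cyp7b1, an oxysterol hydroxylase of the endoplasmic reticulum, stood out by the closeness of its arrays (chr3:18071944-18243890, GRCm38.p6). Its relative log2 value was -2.22 in IL-3 and -2.23 at 2 h in ASXL1-MT cells, against 0.68 and 0.81 in mock cells. Both ASXL1-MT arrays lay about 3 log2 units under both mock arrays. The early difference was -2.97 ± 0.10 (SE of the fit, 2 pairs), with a limma adjusted p of 0.314 over all genes tested. Over the 7712 genes past the stricter filter the same difference had an adjusted p of 0.00346, and both values take their error from all 8 arrays. The limma adjusted p was 0.932 in the 4 early arrays alone and 0.73 with 1 vector effect over 4 time points. It was 0.641 with quantile normalization and 0.616 with probe set means. With 2 settings chosen after seeing the data it was 0.0241 (spread prior by level) and 0.00111 (level of 8 or more). At 6 h and 24 h Cyp7b1 was lower by 0.77 and 0.78, from values of -1.45 and 0.78 in ASXL1-MT cells and -0.68 and 1.57 in mock cells. Its other 2 probe sets were dim, and 1 of them was lower in both early pairs, with differences of -4.59 in IL-3 and -0.52 at 2 h. The pair of early differences for the other had opposite signs.

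Among the 15 lowest genes, ranked by the smaller of the 2 early differences, some are known from maturing neutrophils and phagocytes and others from surface or signalling roles. Ngp, a neutrophil granule protein, measured -1.17 and -1.22 in ASXL1-MT cells in IL-3 and at 2 h, against -0.04 and 0.04 in mock cells. The early ASXL1-MT arrays lay below both mock arrays, and the fitted difference was -1.20 ± 0.215 (adjusted p = 0.853). The difference was -1.01 at 6 h and -0.32 at 24 h, when Ngp stood at 4.19 in ASXL1-MT cells and 4.51 in mock cells. Klhl6, an adaptor of a cullin ubiquitin ligase best known in B cell signalling, had values of -1.38 and -1.88 in ASXL1-MT cells, against -0.20 and 0.10 in mock cells. Its difference was -1.18 in IL-3, -1.98 at 2 h, -1.04 at 6 h and about the same at 24 h, and no pair of arrays crossed. Ankrd22, a protein with ankyrin repeats, stood at -1.50 on both early ASXL1-MT arrays, against -0.41 and -0.26 in mock cells. Its later differences were -0.82 and -0.63. Prom1 encodes prominin, a membrane protein used to mark stem and progenitor cells. It measured -1.28 and -1.46 in ASXL1-MT cells, against 0.27 and 0.47 in mock cells, and differed by -0.10 at 6 h and -1.17 at 24 h.

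The remaining members of the lowest 15 were less even across time. E430016F16Rik was lower in all 4 pairs (-2.46, -1.05, -1.66 and -0.63). Mucl1, a secreted mucin-like protein, differed by -2.20 and -2.73 in the early pairs, by -4.17 at 6 h and by -0.05 at 24 h. Fgf2os, antisense to a fibroblast growth factor gene, differed by -5.50 in IL-3 and -1.56 at 2 h, with the ASXL1-MT array in IL-3 at -4.60. For the clotting factor F7 (-2.98 and -2.27), the potassium channel Kcnd3 (-1.61 and -1.59), the receptor subunit Gabra3 (-3.26 and -1.40), the glutamate transporter Slc1a3 (-1.97 and -4.40) and 4930447K03Rik (-3.96 and -3.79), ASXL1-MT was higher at 6 h by 0.36 to 4.81. Gm7694 differed by -2.38 and -2.21, and C230072F16Rik by -3.45 and -1.06. Of these 15 genes, 6 had another probe set, with 13 more in all. Of these 13, 2 were lower by 0.5 or more at both early points (1 each of Cyp7b1 and Slc1a3), and 4, of C230072F16Rik, Kcnd3 and Slc1a3, were higher at both. Averaged over its probe sets, Slc1a3 differed by -0.56 rather than -3.18.

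The 15 highest genes were led by Gm30421, which measured 0.92 and 1.22 in ASXL1-MT cells in IL-3 and at 2 h, against -1.79 and -2.89 in mock cells. Slc44a1, a choline transporter, measured -0.22 and 0.79 in ASXL1-MT cells, against -2.67 and -3.03 in mock cells. Cdhr3, a cadherin-related surface protein, measured 0.84 and 0.40 in ASXL1-MT cells, against -1.31 and -2.94 in mock cells. In each of these the early ASXL1-MT arrays lay above both mock arrays. Masp1, a protease of the lectin pathway of complement, had the smallest error of the 15, with values of 0.71 and 0.30 in ASXL1-MT cells and -0.52 and -0.89 in mock cells. Its early difference was 1.21 ± 0.09 (adjusted p = 0.653), but at 6 h and 24 h it was lower in ASXL1-MT cells, with differences of -0.56 and -0.55. The other Masp1 probe sets, all dimmer, were mixed in direction at those later points. The 1 of highest estimated level among them was higher by 3.94 and 3.65. Prrt1, a transmembrane protein of synapses, was higher by 1.06 and 1.14 and differed by -0.23 and 0.19 later. Arhgef40 was higher by 1.80 and 1.31, and Vav2, a signalling protein of blood cells, by 1.45 and 0.92. The rest were the linker histone H1f4, the phospholipase Plcb1, the mucin Muc20, the kallikrein Klk1b11, Cysrt1, Rhov, 2810025M15Rik and 4930445E18Rik, with smaller early differences of 0.86 to 1.69. Of the 15 genes 8 had another probe set, 19 more in all. Of these 19, 1 (of Plcb1) was higher by 0.5 or more at both early points, and 6, of Arhgef40, Masp1, Muc20, Plcb1 and Slc44a1, were lower at both. Averaged over its probe sets, Slc44a1 differed by 0.42 rather than 3.14.

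The 6 h and 24 h differences had no part in the ranking of these genes, but the stricter filter reads all 8 arrays, and a gene could pass it through late arrays alone. Of the 15 lowest genes, 7 were lower in ASXL1-MT cells at both later points, where 27.4% of the genes past the stricter filter were. Of the 15 highest genes, 0 were higher at both, where 27.2% were. Read from the 4 early arrays alone, the stricter filter kept 6 of the 15 lowest genes and 11 of the 15 highest. It left out Ngp, Ankrd22 and Prom1 among others. Of the 6, 3 were lower at both later points, where 27.0% of the 7458 genes kept were, and of the 11, 0 were higher at both, where 27.5% were. Among all genes tested, 36 of the 166 lower by the size rule were lower at both later points (24.8% of all genes tested) and 42 of the 138 higher ones were higher at both (28.1%), shares of the same order as the background. The later arrays carry the same 2 vectors and may come from the same cultures, so the vector and the culture cannot be told apart in them either. In limma the early and the late vector effects differed for 0 of 12959 genes at the same false discovery rate, with 606 at an unadjusted p under 0.05.

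**Figure D2:**
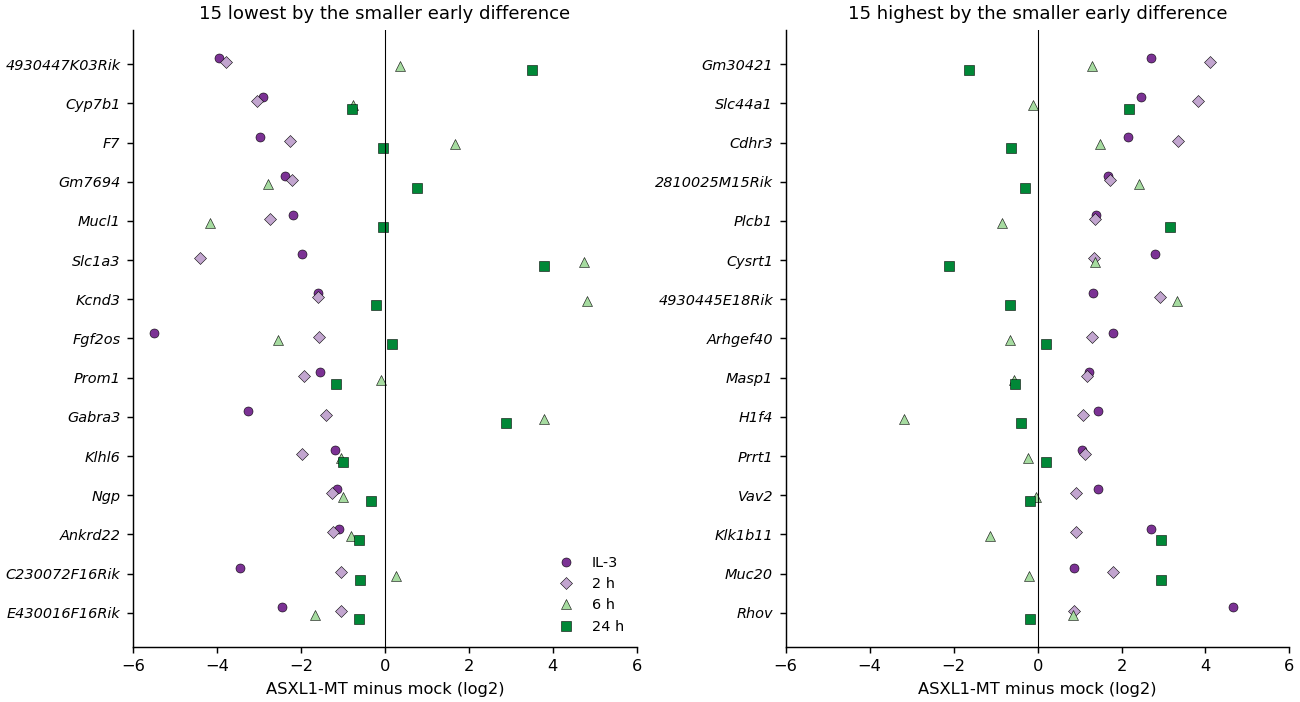
ASXL1-MT minus mock (x axis, log2) in IL-3 and at 2, 6 and 24 h in G-CSF for the 15 lowest (left) and 15 highest genes (right) past the stricter filter, ordered by the smaller early difference. Circles and diamonds, the early pairs, lie on 1 side of 0 by the choice of genes; of the triangles and squares, both stayed on that side for 7 of the lowest genes and 0 of the highest.

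Genes with a gap of at least 0.5 in the same direction in all 4 pairs were then singled out, a choice made after their values were seen. Of the 7712 genes past the stricter filter, 8 were lower in ASXL1-MT cells by this criterion and 2 were higher. Genes with gaps of that size in mixed directions were not counted. On the early arrays alone, Ankrd22, Cd14, Mtus1 and 2900026A02Rik fell short of that filter. The lower ones were Cyp7b1, E430016F16Rik, Klhl6, Ankrd22, Cd14, Mtus1, Itsn1 and Mycn. Cd14, the endotoxin co-receptor of phagocytes, measured -1.77 and -1.29 in the early ASXL1-MT arrays, against -0.29 and -0.34 in mock cells. Its difference was -1.22 ± 0.18 early (adjusted p = 0.805), -0.67 at 6 h and -0.52 at 24 h. Mycn, a relative of the growth regulator Myc, measured -0.44 and -0.54 in ASXL1-MT cells, against 0.23 and 0.43 in mock cells, and its gap was -0.99 and -1.03 later. Myc itself was higher in ASXL1-MT cells by 0.16 in IL-3 and 0.19 at 2 h. With all 3 Mycn probe sets averaged the early difference was 0.18, so the direction rests on the brightest of them. Itsn1, a scaffold of endocytosis, measured -0.76 and -0.93 in ASXL1-MT cells, against 0.11 and 0.15 in mock cells, with later gaps of -0.74 and -0.98. Mtus1, a microtubule-associated protein, differed by -1.77 and -0.53 early and by -1.01 and -0.59 later. The higher ones were the lymphatic growth factor Vegfc, by 0.69, 0.61, 0.53 and 0.75, and 2900026A02Rik, by 1.38, 0.58, 1.42 and 2.17.

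**Figure D3:**
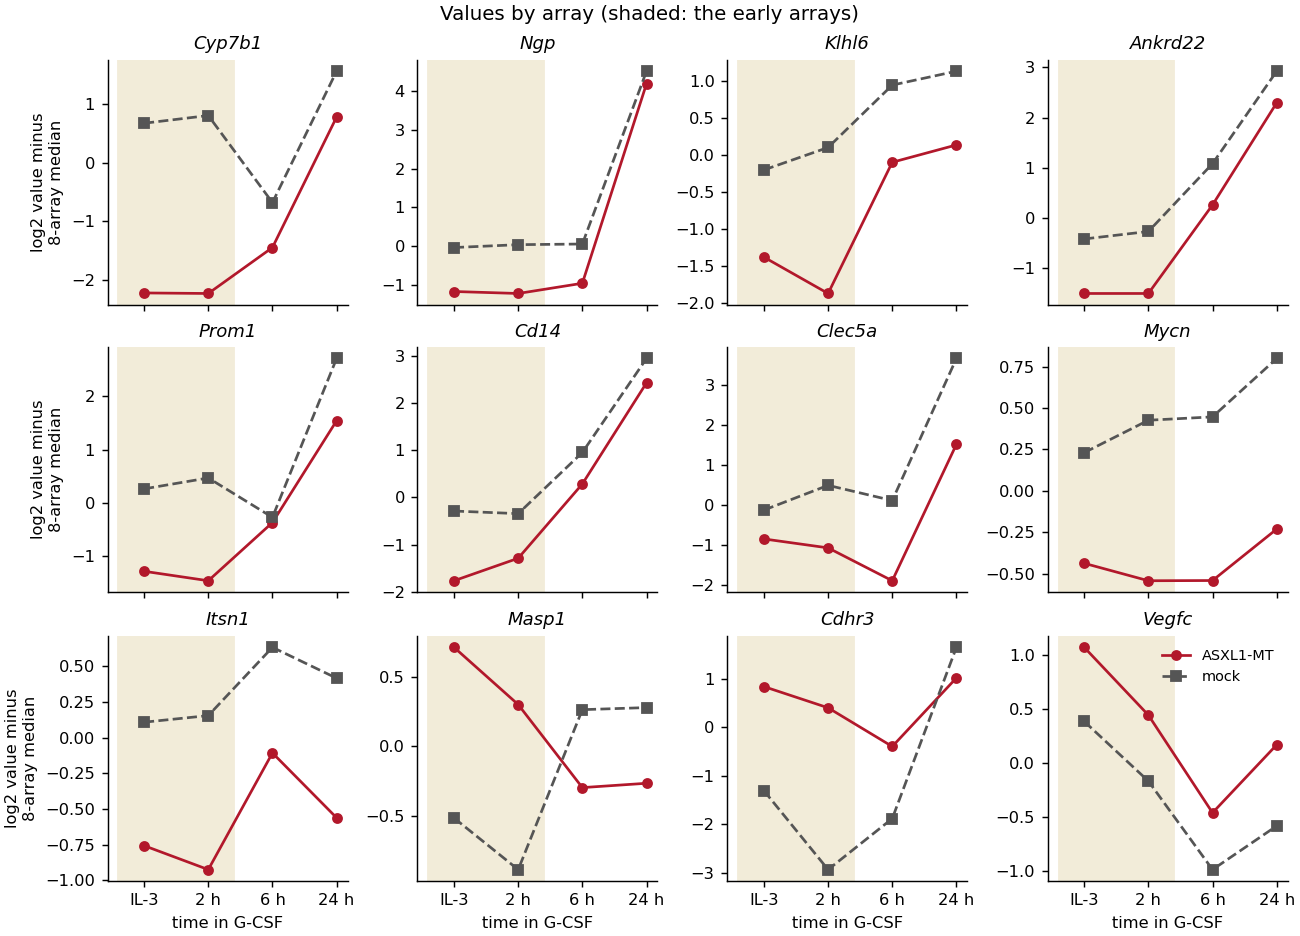
Relative log2 value (y axis) of 12 genes on each of the 8 arrays by time in G-CSF (x axis), ASXL1-MT as red circles and mock as grey squares, 1 array per point, early arrays shaded. ASXL1-MT lay below mock on all 4 arrays for Cyp7b1, Ngp, Klhl6, Ankrd22, Prom1, Cd14, Clec5a, Mycn and Itsn1, above it on all 4 for Vegfc, and crossed it for Masp1 and Cdhr3.

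Among lists with at least 10 bright members, the secondary and tertiary granule list and the mature neutrophil list had the lowest medians before maturation; these are counts and medians, with no test of a list. Of 35 gene lists, holding 763 genes tested, the secondary and tertiary granule list had 11 members past the stricter filter, of which 8 were lower in ASXL1-MT cells in both early pairs and 0 were higher in both. Among all genes past that filter 28.5% were lower in both and 23.8% higher in both. The median early difference of these 11 was -0.30, against -0.01 for all 7712 genes. Single differences were mostly small: of the 14 members tested, 1 (Ngp) passed the size rule downward and 0 upward. Ltf, the iron-binding lactoferrin, measured -2.02 and -0.39 in ASXL1-MT cells, against 0.30 and 0.14 in mock cells. Both Ngp and Ltf passed the stricter filter only through their later arrays and fell short of it before maturation. Wfdc21, a small secreted protein, measured -0.68 and -0.56 in ASXL1-MT cells, against -0.28 and -0.07 in mock cells. Lcn2, the siderophore-binding lipocalin, measured -1.23 and -0.56 in ASXL1-MT cells, against -0.69 and -0.50 in mock cells, so the pairs differed by -0.54 and -0.06. The list's median was -0.35 at 6 h and -0.30 at 24 h.

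Of 19 mature neutrophil genes past the stricter filter, 14 were lower in both early pairs and 0 higher, with a median of -0.18. None of the 24 tested passed the size rule (0 higher, 0 lower). Csf3r, the receptor for G-CSF itself, measured -0.75 and -0.77 in ASXL1-MT cells, against -0.34 and -0.42 in mock cells, a difference of -0.38 ± 0.10 (adjusted p = 0.932). C5ar1, the receptor for a complement fragment that attracts neutrophils, was dimmer than the stricter filter and measured -0.02 and -0.93 in ASXL1-MT cells, against 0.74 and 0.02 in mock cells. The integrin chain Itgb2 differed by -0.21 and -0.48. Of 13 primary granule genes 7 were lower in both pairs and 1 was higher, with a median of -0.06. The lysozyme genes differed by -0.65 and -0.27 (Lyz1) and by -0.33 and -0.54 (Lyz2), and myeloperoxidase (Mpo) differed by 0.08 and -0.10 and elastase (Elane) by 0.04 and -0.31.

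The list of Clec5a, DAP12 and paired receptors, activating and inhibitory receptors of myeloid cells, had 13 of 21 members lower in both early pairs and 3 higher, with a median of -0.17. Clec5a, a lectin receptor that signals through DAP12, measured -0.84 and -1.06 in ASXL1-MT cells, against -0.12 and 0.50 in mock cells, and differed by -2.01 at 6 h and -2.15 at 24 h. Its early difference was -1.14 ± 0.26 (adjusted p = 0.894), and its probe set did not pass the stricter filter, so it is not among the 21. The DAP12 adaptor gene, Tyrobp, differed by -0.23 and -0.59, the inhibitory receptor Pirb by -0.67 and -0.98, and the lectin Clec4d by -0.57 and -0.43. Pilra, another inhibitory receptor, was higher by 0.58 and 0.60.

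**Figure D4:**
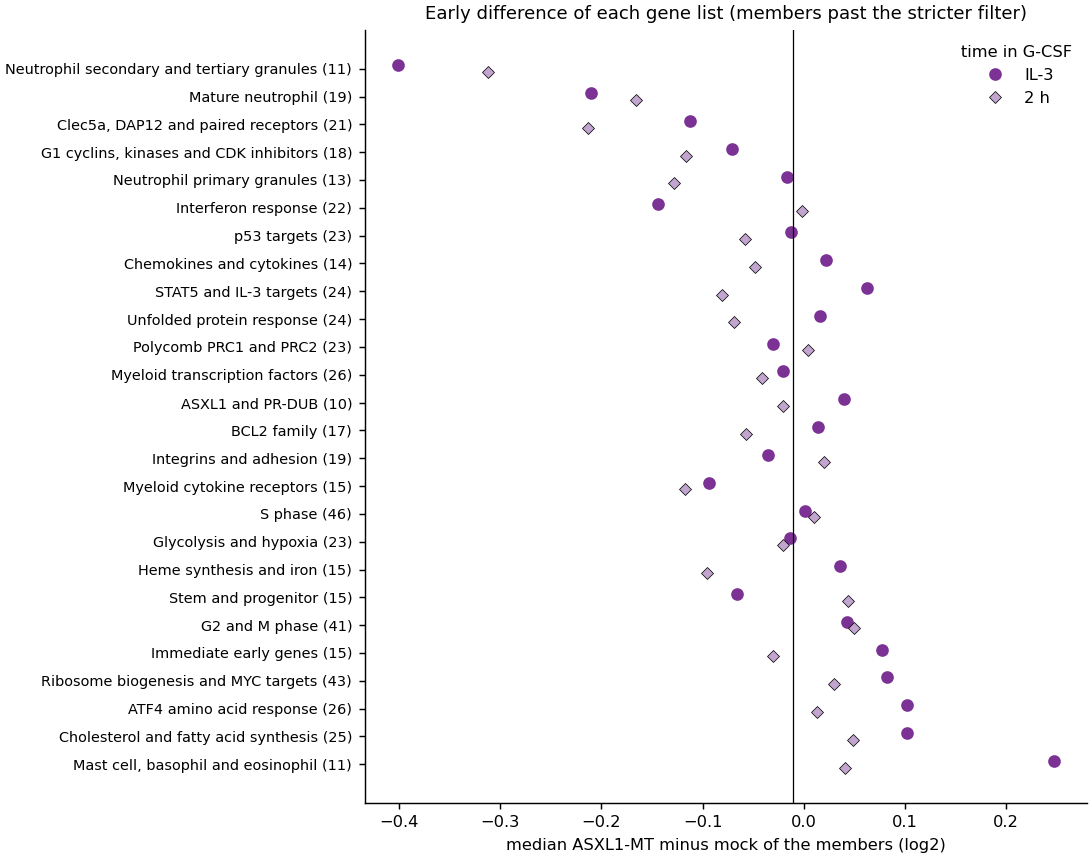
Median ASXL1-MT minus mock (x axis, log2) of each gene list with at least 10 members past the stricter filter (number in brackets), circles for the IL-3 pair and diamonds for the 2 h pair; the line marks the median of all 7712 genes, -0.01. The secondary granule list lies lowest in both pairs and the mast cell list highest in IL-3.

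With the filter read from the early arrays alone, the secondary granule list kept 9 members, 6 of them lower in both early pairs (median -0.27), the mature neutrophil list 16, with 12 lower (-0.17), and the receptor list 17, with 11 lower (-0.17). Of all genes kept, 28.2% were lower in both. The lists that follow are again given for the filter read from all 8 arrays, unless stated. Of 18 G1 cyclin, kinase and inhibitor genes 10 were lower in both pairs and 2 higher, at a median of -0.08. Cholesterol and fatty acid synthesis genes leaned the other way, with 13 of 25 higher in both pairs, 3 lower and a median of 0.08. On the probe sets used, the sterol enzymes Fdft1 and Cyp51 were higher by 0.32 and 0.26, and by 0.24 and 0.51. For each, another probe set of about the same estimated level did not show this. Its differences were 0.12 and -0.07 for Fdft1 and -0.003 and -0.09 for Cyp51. Of 43 ribosome biogenesis and MYC target genes 18 were higher in both and 7 lower, at a median of 0.04. Of 11 mast cell, basophil and eosinophil genes 5 were higher in both and 3 lower, at a median of 0.13. With the filter read from the early arrays alone, 9 of them were kept, 5 higher in both and 1 lower, at a median of 0.28. The mast cell protease Cpa3 differed by 0.25 and 0.33, the basophil protease Mcpt8 by 0.33 and 0.24, and the eosinophil genes Epx by 0.47 and 0.38 and Prg2 by -1.11 and -0.90. Prg2 passed the filter only through its later arrays. Whether cells of these types had a part in the lower neutrophil genes was not tested. The progenitor and mast cell factor Gata2, from the list of myeloid transcription factors, measured 0.47 and 0.07 in ASXL1-MT cells, against 0.06 and -0.53 in mock cells, and was also higher by 0.67 at 6 h and 0.35 at 24 h. Medians were 0.01 for 46 S phase genes, 0.03 for 41 G2 and M phase genes, -0.04 for 23 Polycomb genes and -0.04 for 24 STAT5 and IL-3 targets. In these cell cycle lists E2f2, a driver of S phase, differed by -0.19 and -0.55, thymidylate synthase (Tyms) by 0.37 and 0.24, and the mitotic kinase Aurkb by -0.23 and -0.23. Another E2f2 probe set of about the same estimated level differed by 0.02 and 0.49.

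Members of other lists also passed the size rule. Apart from Prom1, of the stem and progenitor list, their probe sets were dimmer than the stricter filter. Il6ra, the interleukin-6 receptor, differed by -2.71 in IL-3 and -1.83 at 2 h, the chemokine Cxcl1 by -2.91 and -2.87, and the cell cycle inhibitor Cdkn2b by -3.54 and -3.40. The transcription factor Sox17 differed by -1.37 and -1.18, the platelet collagen receptor Gp6 by -3.96 and -1.39, the guanylate-binding protein Gbp2 by -3.38 and -1.95, and the imprinted RNA Meg3 by -1.82 and -1.09. In the other direction, the mast cell tryptase Tpsb2 was higher by 2.93 and 2.48, the transcription factors Batf3 by 2.06 and 1.18 and Hand1 by 1.15 and 2.00, the T cell kinase Zap70 by 1.15 and 1.39, and the interferon-induced genes Oasl1 by 1.20 and 1.38 and Iigp1 by 1.25 and 3.45. Of these 13 genes only Il6ra kept its direction at both later points (-0.70 and -1.10). A second Il6ra probe set measured 0.25 and -0.51 in the early pairs. With all probe sets averaged, the early difference was -0.88 for Cxcl1, -0.69 for Sox17, -1.96 for Gbp2 and -0.13 for Meg3. It was 1.47 for Tpsb2, 0.33 for Hand1, 0.72 for Zap70, 1.03 for Iigp1 and -1.20 for Il6ra. The other probe sets of Sox17, Gbp2, Tpsb2, Hand1, Zap70 and Iigp1 each ran in opposite directions in IL-3 and at 2 h.

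Among regulators named for the study's setting, differences were small or uneven. Spi1, the PU.1 factor, measured -0.83 and -0.84 in ASXL1-MT cells, against -0.56 and -0.44 in mock cells, and Gfi1, a repressor needed for granulopoiesis, measured -0.48 and -0.50 in ASXL1-MT cells, against -0.11 and -0.25 in mock cells. Cebpa, a master factor of granulocytes, was higher by 0.76 and 0.86 on a dim probe set, and Csf2rb, the shared chain of the IL-3 receptor, differed by 0.16 and -0.16. The homeobox genes Hoxa5 (0.04 and 0.45) and Hoxa9 (-0.09 and -1.75) were dim. Kit was below the filter, with differences of 1.72 and -0.70, and Cebpe was not analysed here.

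The targeted gene could not settle the labels. A dim Asxl1 probe set was higher in ASXL1-MT cells in IL-3 and at 2 h (-0.02 and 0.02, against -1.02 and -0.72 in mock cells) and by 0.83 and 0.16 later. The bright Asxl1 probe set used for the gene was lower, at -0.29 and -0.53 in ASXL1-MT cells, against -0.01 and -0.20 in mock cells, and differed by -0.47 and -0.27 later. Another bright one differed by -0.08 and -0.01. The labels used here give neither the species of the ASXL1 insert nor the transcript part each probe set reads, and a 3′ probe outside the inserted sequence checks nothing.

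The early difference was also set beside the later change of each gene, as a description with no test. Change was taken from arrays the early difference does not use, as 24 h minus 6 h averaged over both cultures. The 51 genes higher at 24 h by 2 or more log2 units had a median early difference of -0.35, with -0.34 in IL-3 and -0.39 at 2 h. Of them 30 were lower in both early pairs (58.8%) and 8 higher (15.7%), and 9 belong to the 3 neutrophil granule and mature neutrophil lists. For the 173 genes higher by 1 to 2 the median was -0.13, with 49.1% lower in both pairs. For the 6153 genes that stayed within 0.5 it was -0.01, with 27.6% lower in both. The 70 genes lower at 24 h by 1 to 2 had a median of 0.06, and 38.6% of them were higher in both early pairs. The last bin, genes lower by 2 or more, held 13 genes and its pair medians differed in sign (0.17 and -0.07). Of the 51 genes, 27 passed the stricter filter through their later arrays and were dim before maturation. The 24 that passed it on the early arrays alone had a median of -0.22, with -0.39 in IL-3 and -0.11 at 2 h, and 13 were lower in both early pairs (54.2%). Across the 7712 genes the Spearman correlation of the 2 quantities was -0.12, a description of genes that share the same arrays.

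**Figure D5:**
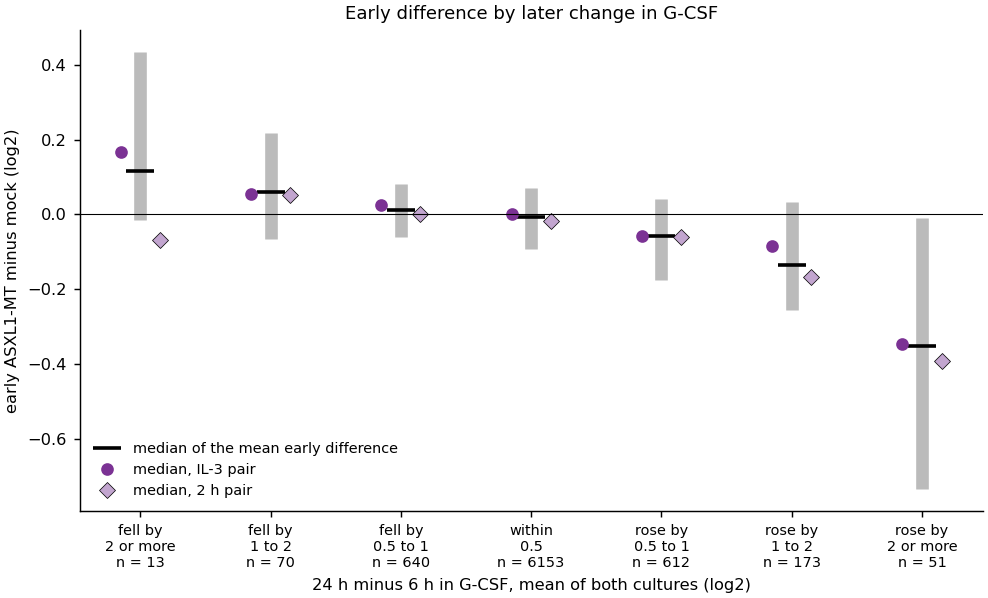
Early ASXL1-MT minus mock (y axis, log2) of 7712 genes binned by 24 h minus 6 h in G-CSF (x axis, log2, mean of both cultures); black bars are bin medians, grey bars run between the quartiles, circles and diamonds are the medians of the IL-3 and 2 h pairs. Medians run from above 0 in genes that were lower at 24 h to -0.35 in the 51 genes that were higher by 2 or more.

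Over 20 chromosomes, with 200 to 649 genes each past the stricter filter, the median early difference lay between -0.03 and 0.01.

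Promoters were read for the genes past the stricter filter with early differences of at least about 1.5-fold in both pairs. Sequences were matched in RefSeq (GRCm38.p6) for 26 of 31 lower genes, 19 of 22 higher genes and 6378 of the 7712 genes. The ratio of observed to expected CpG pairs in the 250 bases before the start site had a median of 0.23 for the lower and 0.33 for the higher genes, against 0.77 for all. CpG-poor promoters are typical of tissue-restricted genes, and both directions held them. The pattern TTNNGNAA (TTNCNNAA on the other strand, with overlaps counted) is a loose form of the core that C/EBP factors of the granulocyte lineage recognise. It was in 13 of the 26 lower promoters (50.0%) and 7 of the 19 higher ones (36.8%), against 28.0% of the 6378 and 36.9% of all 27025 promoters in the table. Median GC content was 52.0% in the lower, 56.0% in the higher, 60.0% in the 6378 and 52.0% in all promoters. Whether base composition bears on the share of this AT-rich pattern was not tested. The PU.1-type core GAGGAA, searched on both strands, was in 15.4% of the lower, 26.3% of the higher and 22.3% of the 6378 promoters. For the genes at least 2-fold lower in both pairs, dim ones included, the CpG ratio was 0.40 and the C/EBP pattern share 34.3%, against 0.70 and 29.0% for all genes tested, while for the higher ones under 80% had a sequence and the check is void. The bases before the start of 4 of the 26 lower genes are shown because they span 0 to 3 occurrences of the C/EBP pattern, and capitals mark its matches on either strand.
Ngp, 250 bases at chr9:110419558-110419807, GRCm38.p6, plus strand: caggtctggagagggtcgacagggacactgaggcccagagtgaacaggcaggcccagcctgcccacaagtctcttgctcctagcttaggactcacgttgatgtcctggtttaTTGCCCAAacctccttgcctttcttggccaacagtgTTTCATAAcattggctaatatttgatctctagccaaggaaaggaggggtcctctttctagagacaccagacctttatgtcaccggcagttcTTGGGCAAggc
Ankrd22, 250 bases at chr19:34166042-34166291, GRCm38.p6, minus strand: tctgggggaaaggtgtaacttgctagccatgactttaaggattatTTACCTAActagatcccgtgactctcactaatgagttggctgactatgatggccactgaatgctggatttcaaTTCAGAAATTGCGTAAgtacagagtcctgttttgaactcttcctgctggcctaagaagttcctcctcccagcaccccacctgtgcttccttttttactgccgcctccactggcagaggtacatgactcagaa
Mycn, 250 bases at chr12:12941837-12942086, GRCm38.p6, minus strand: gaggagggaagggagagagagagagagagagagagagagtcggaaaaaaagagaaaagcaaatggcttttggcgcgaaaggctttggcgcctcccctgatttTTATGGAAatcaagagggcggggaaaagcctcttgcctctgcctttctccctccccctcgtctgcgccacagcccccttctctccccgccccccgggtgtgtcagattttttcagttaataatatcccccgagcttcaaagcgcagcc
Klhl6, 250 bases at chr16:19983050-19983299, GRCm38.p6, minus strand: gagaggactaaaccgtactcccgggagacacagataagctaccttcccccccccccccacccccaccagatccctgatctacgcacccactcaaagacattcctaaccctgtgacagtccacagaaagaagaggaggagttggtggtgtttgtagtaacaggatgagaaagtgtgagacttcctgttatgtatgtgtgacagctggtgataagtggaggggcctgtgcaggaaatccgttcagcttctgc

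In these windows Ngp and Ankrd22 held 3 matches each, 2 of them side by side in Ankrd22, Mycn held 1 and Klhl6 held 0. Ngp and Ankrd22 had 3 CpG pairs each, Klhl6 4 and Mycn 11. A match is a string of letters, and no binding was measured here.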

How the data were processed

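The 8 arrays measured transcript levels in ASXL1-MT and mock cells, 1 array per condition. The authors' deposited table holds log2 values centred on each probe set's median over the 8 arrays. The base of 2 was assumed from RMA, which the submitters' processing notes name without a version, and MAS 5.0 captured the intensities per the labels. Scaling between arrays is not given in the sources used here, and neither is the centring, which was read from the values. Because centring removes a probe set's level, brightness was inferred from how finely its 32-bit numbers were rounded. The estimate was checked on simulated data and separates levels under 4, from 4 to 8, and 8 or more. A single gene symbol was given for 34945 probe sets, several symbols for 932 and no symbol for 9160. A gene was read from its probe set of highest estimated level, except that small differences in level did not decide the choice. A probe set of slightly higher estimated level was thus passed over for Fdft1 (11.70 against 11.68), Cyp51 (11.89 against 11.88) and Meg3 (6.48 against 6.45). The estimate cannot tell levels this close apart. The one passed over for Meg3 was higher in ASXL1-MT cells in both early pairs, by 0.36 and 1.15. Genes whose second-highest array reached the table's median level, 6.27, were tested, and the stricter filter was the 70th percentile, 8.33. Both cutoffs lie inside a class of the estimate, so genes near them were not sharply separated.

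Differences were fitted with limma 3.58.1 in R 4.3.3 (lmFit, eBayes) on time point and an early and a late vector effect, leaving 2 residual degrees of freedom beside 1.17 from the prior. P-values are two-sided and adjusted by Benjamini-Hochberg over all genes tested. Errors are SEs of the fit. The genes named were those past the false discovery rate, the 15 highest and 15 lowest past the stricter filter by the smaller early difference, up to 4 members of each list past the size rule (otherwise up to 2), and a fixed set of genes of the study's setting (Asxl1, Clec5a, Hoxa5, Hoxa9, Csf3r, Csf2rb, Mpo, Elane, Gfi1, Cebpa, Cebpe, Spi1, Kit and Myc), of which the text gives a part. Other list members and the genes of equal direction in all 4 pairs were added after their values were seen. The comparison, the 35 lists and these rules were chosen with earlier results of these data known. Alternatives were array centring, quantile normalization, probe set means, other filters and sizes, other fits, each early pair left out and, added after the values were seen, a stricter filter read from the early arrays alone. Code in Python 3.11.15 was tested on simulated data.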

Additional observations from a re-analysis of the deposited data

Results flagged for a closer look

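Named genes whose 2 early differences ran one way and whose 2 later differences ran the other are listed by the early minus the late ASXL1-MT effect on the log2 scale. None passed the limma test of that difference over all genes tested. The early minus late effect was -7.45 for Slc1a3, -5.81 for 4930447K03Rik, -5.67 for Gabra3, -5.22 for Gbp2, -3.47 for Hoxa9 and -1.93 for Sox17, all lower early and higher late. It was 3.43 for Zap70, 3.40 for Hand1, 3.05 for H1f4, 1.76 for Masp1, 1.49 for Oasl1, 1.30 for Vav2 and 0.73 for Hoxa5, all higher early and lower late. Adjusted p lay at 0.73 or above for each. Among genes with an estimated level of 8 or more, a filter chosen after seeing the data, Masp1 had an adjusted p of 0.0487 and Cyp7b1, lower early by more than late (-2.20), one of 0.0392. The lower late value of Masp1 rests on the probe set used, since its dimmer probe sets were mixed in direction at 6 h and 24 h.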

How the results depend on the processing

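The count of genes past the false discovery rate stayed 0 with each array centred on its median, with quantile normalization, probe set means or no filter, in a fit of the 4 early arrays alone and with 1 vector effect over 4 time points. It was 1, Cyp7b1, with the stricter filter, with a spread prior by level and among genes of level 8 or more, the last 2 chosen after seeing the data. Without either early pair it ranged from 0 to 0, with 785 and 793 genes at an unadjusted p under 0.05. The early and late effects differed for 0 genes with no filter or the stricter filter, and for 2 at level 8 or more. The 138 higher and 166 lower genes of the size rule became 493 and 569 with no filter, 11 and 15 with the stricter filter, 9 and 7 at level 8 or more, 307 and 363 at about 1.5-fold, and 37 and 43 at a size of 2. Using 1 pair alone gave 651 to 780 higher and 700 to 844 lower genes. Of 646 recomputed differences of named genes, 7 reversed. They were Asxl1 (0.17), Hoxa9 (0.73) and Mycn (0.18) with probe set means, Mpo with quantile normalization (0.0317), and, with 1 early pair left out, Mpo (-0.103 to 0.0788), Elane (-0.315 to 0.0414) and Csf2rb (-0.158 to 0.159). With probe set means, 18 of 40 named genes with several probe sets kept their sign at under 0.5 times the size, among them Slc1a3 (-0.56), Slc44a1 (0.42), C230072F16Rik (-0.23), Arhgef40 (0.31), Kcnd3 (-0.29) and Vav2 (0.31). Of 281 recomputed medians of the lists and of the genes highest at 24 h, 66 moved by more than the spread of the pairs. Medians of the secondary granule, mature neutrophil and Clec5a lists stayed below 0 in each alternative run (-0.43 to -0.14, -0.23 to -0.15 and -0.31 to -0.13).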
